A study of Homo sapiens with 35 samples.

Results

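ETS1 sites that were found only without TWEAK were followed here in U-87 MG cells, an established human glioma line. A site was the merged interval of ETS1 ChIP-seq peaks found in both replicates of a condition, and 1464 untreated and 1875 TWEAK sites lay on chromosomes 1 to 22 and X. Of the 1464 untreated sites, 368 shared no base with a TWEAK site and are called lost sites below, which names the peak rule and not a measured loss of signal. The other 1096 are called common sites, and 757 TWEAK sites that touched no untreated site are called gained sites, which makes 2221 sites in all. The lost sites were thus chosen by the ETS1 peak calls of the 4 libraries, so every ETS1 value given for them is a description and was not tested.

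The study asked how non-canonical NF-κB signalling changes where ETS1 sits on the genome and what is transcribed there. Control cells carried the CRISPR control and were either untreated or given TWEAK at 10 ng/ml for 48 h after serum starvation, and ETS1 KD and NFKB2 KD cells carried CRISPR guides against those genes and were studied only with TWEAK. ETS1 was profiled in the 2 control groups, RNA polymerase II (RNA Pol II) in the 2 control groups and both KD groups, and p52 in the 2 control groups and in ETS1 KD cells made with guide 1 or guide 2, with 2 replicates in each group. RNA-seq covered control untreated, control TWEAK, ETS1 KD TWEAK and NFKB2 KD TWEAK cells, with 3 replicates in each group. All samples are 1 cell line, which guide served in the RNA-seq and RNA Pol II libraries is not given in the sources used here, and without an untreated KD group the knockdowns speak only of TWEAK-treated cells.

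ETS1 belongs to the ETS family of transcription factors, whose DNA-binding domain recognises a GGAA core, and it is known for roles in invasion and angiogenesis. TWEAK, a cytokine of the TNF family, starts non-canonical NF-κB signalling: the NFKB2 product p100 is processed to p52, a subunit that binds κB sequences. RNA Pol II peaks mark where transcribing or paused polymerase sits, mostly at promoters.

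The lost sites fell into 2 kinds of sequence, and examples of each are printed here from the hg38 genome, forward strand, 5′ to 3′. The strongest lost site, by the lower of its 2 untreated fold enrichments, lay between genes on chromosome 19, and the 200 bases around its summit (chr19:2489006-2489205) hold a match to the κB consensus (GGGA and CC with any 4 bases between), in capitals.
strongest lost site: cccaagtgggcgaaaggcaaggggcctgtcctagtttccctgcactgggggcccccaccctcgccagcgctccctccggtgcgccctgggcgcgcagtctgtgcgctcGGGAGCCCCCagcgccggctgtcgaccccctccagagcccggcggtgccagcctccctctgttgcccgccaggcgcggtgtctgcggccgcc
Capitals in the next 3 stretches mark a match to a consensus, on either strand, at the strongest lost site that holds it. CTTCCGG, the high-affinity ETS sequence, is at the promoter site of CDK5R1 (chr17:32487626-32487685). AGGAAG, an ETS core, is at that of TYMS (chr18:657561-657620), and GCGCATGC, part of the NRF1 sequence, at that of LRRC20 (chr10:70382306-70382365). A site is named a promoter site by its centre (window given below), so a printed stretch can hold coding bases. The CDK5R1 stretch, with its marked match, reads as coding sequence, in codons with no stop.
CDK5R1: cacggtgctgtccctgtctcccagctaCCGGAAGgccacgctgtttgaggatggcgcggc
TYMS: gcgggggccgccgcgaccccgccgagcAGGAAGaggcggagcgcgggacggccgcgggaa
LRRC20: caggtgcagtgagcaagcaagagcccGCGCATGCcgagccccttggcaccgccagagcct
The strongest lost site with none of the 11 consensus sequences searched was a promoter site of FEZF2 by its centre (chr3:62372779-62372868). Its printed stretch reads as coding sequence on the reverse strand, from an ATG with no stop codon.
FEZF2: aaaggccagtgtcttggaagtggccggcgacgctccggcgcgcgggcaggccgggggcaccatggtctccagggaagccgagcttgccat
The second kind is repetitive. The first stretch below (chr1:122682552-122682722) lies in the lost site chr1:122682527-122682737. The second stretch (chr1:122682892-122683062) lies past the end of that site and shares no base with it. Each GGAA or TTCC is in capitals.
first stretch: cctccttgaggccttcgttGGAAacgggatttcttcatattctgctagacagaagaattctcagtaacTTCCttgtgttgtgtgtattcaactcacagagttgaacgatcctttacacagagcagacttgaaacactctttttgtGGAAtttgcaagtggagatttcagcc
second stretch: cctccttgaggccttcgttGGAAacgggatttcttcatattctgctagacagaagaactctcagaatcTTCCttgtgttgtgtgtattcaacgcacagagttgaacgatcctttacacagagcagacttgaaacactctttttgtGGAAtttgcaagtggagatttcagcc
They are 171 bases long, lie 340 bases apart and match at 97.7% of positions, and the words of 32 bases around this site occurred a median of 5138 times in hg38. A monomer of 171 bases is the repeat unit of alpha satellite DNA, the tandem repeat of human centromeres. A further stretch, on chromosome 2 (chr2:109199575-109199634), is a run of the pentamer GGAAT, here in capitals, which carries the ETS core in every unit.
GGAAT repeat: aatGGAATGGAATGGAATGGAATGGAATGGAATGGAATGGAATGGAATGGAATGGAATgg

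To separate the 2 kinds, the 300 bases around each summit were read as words of 32 bases and the median number of copies of those words in hg38 was taken. A site was called multi-copy at 2 or more copies, a split chosen after the data were seen. Of the 368 lost sites, 145 were multi-copy, which is 39.4% (95% exact binomial interval 34.4 to 44.6%). The share was 25.3% among common sites (277 of 1096, 22.7 to 28%) and 18.9% among gained sites (143 of 757). Sites repeated at a spacing of about 171 bases or its double made up 61 of the 368 lost sites (16.6%), 59 of the common sites (5.38%) and 27 of the gained sites (3.57%). Sites rich in GGAAT were 18 of the 368 lost sites, and no comparison with common or gained sites is given for them. No test was run on these shares, since sites called from the same 4 libraries are not replicates, and the intervals cover counting error only.

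The single-copy and multi-copy lost sites had little in common beyond the rule. Over 223 single-copy lost sites the median GC content was 70.3% (quartiles 66.0 and 73.3%), and the median ratio of observed to expected CpG was 0.856. Over the 145 multi-copy lost sites the median GC content was 40% and the CpG ratio 0.467, and over the 61 sites with the 171-base spacing the GC content ran only from 35.0 to 42.0%. The plot of GC content by copy class shows these as 2 separate peaks. Single-copy lost sites were GC-rich, CpG-rich sequence of the kind found at promoters, and multi-copy lost sites were mostly AT-rich. Common single-copy sites had the same median GC content, 70.3%, as lost single-copy sites.

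**Figure D1:**
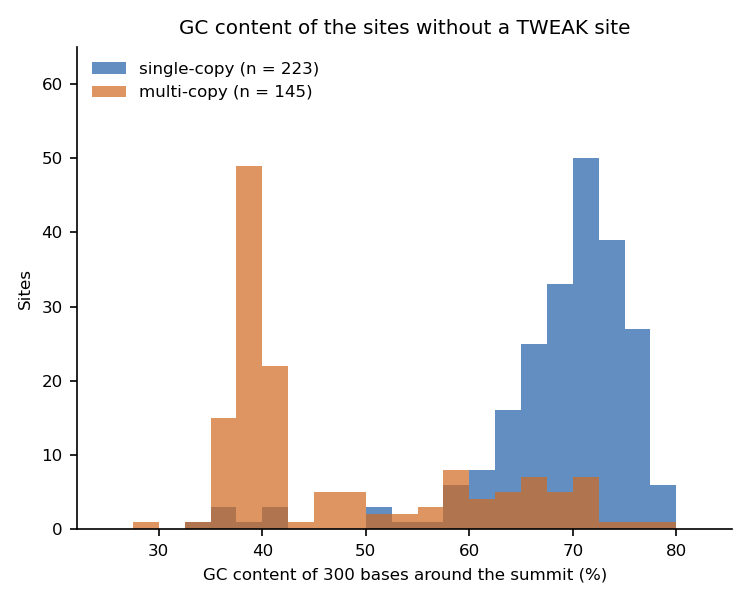
GC content of the 300 bases around the summit (horizontal axis, percent) for the 368 lost sites, as the number of sites in each bin (vertical axis), with 223 single-copy and 145 multi-copy sites as separate bars. The single-copy sites centre near 70.3% and the multi-copy sites near 40%, with a smaller multi-copy group at higher GC content.

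Location followed the same split. A promoter was 1000 bp before to 100 bp after any GENCODE 44 transcript start, and a site was placed by its centre. Of the 223 single-copy lost sites, 139 lay in a promoter (62.3%, interval 55.6 to 68.7%), 33 in an intron, 29 in an exon and 22 between genes, and their median distance to the nearest start was 229 bp. Of the 145 multi-copy lost sites, 13 lay in a promoter (9.0%), 19 in an intron, 8 in an exon and 105 between genes, with a median of 136724 bp to the nearest start. The promoter share of common sites was 60.7% for single-copy (497 of 819) and 14.1% for multi-copy sites (39 of 277). So single-copy lost sites sat at promoters about as often as single-copy common sites, with overlapping intervals.

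The multi-copy lost sites were clustered. On chromosome 1, 36 lost sites lay between positions 121767533 and 124740443, all multi-copy and 34 with the 171-base spacing, and none of them was in a promoter. The same stretch held 27 common and 12 gained sites. On chromosome 13, 15 lost sites between 16355948 and 18212200 included 10 with this spacing, beside 0 common and 4 gained sites. On chromosome 21, 14 lost sites between 8222926 and 8464075 lay in the ribosomal DNA, around RNA5-8SN2, one of the genes for 5.8S ribosomal RNA, beside 29 common sites. On chromosome 10, 7 lost sites lay between 40556648 and 42491419, beside 9 common and 3 gained sites. Of these 7, 5 were multi-copy, 3 had the 171-base spacing and 3 were rich in GGAAT. Smaller groups of 5 lay among DUX4-like and REXO1-like gene copies, on chromosomes 10 and 8. Another 5 lay in a GGAAT array on chromosome 4, beside 11 common and 2 gained sites. All 7 sites of the larger chromosome 10 group lacked a TWEAK ETS1 peak, as did 21 of the 36 on chromosome 1 and 0 of the 5 REXO1-like sites. How multi-mapping reads were treated is not given in the sources used here, and a peak in a repeat could stem from any of its copies.

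The lost sites were weaker ETS1 peaks than the common sites in the untreated cells, as the rule favours. The lower of the 2 untreated fold enrichments over input had a median of 3.95 at lost sites (quartiles 2.96 and 4.68, range 1.12 to 7.18) and of 5.21 at common sites. By replicate the lost sites had a median fold enrichment of 4.34 and 4.23. Ordered by q-value within each list, and not by fold, the lost sites had a median rank of 2023 among the 4372 peaks of untreated replicate 1. In replicate 2 it was 1403 among 2066 peaks, and common sites had median ranks of 757.5 and 792.5. Among the 500 peaks of each list with the largest −log10 q were 21 and 31 lost sites. The lost sites were also narrower, with a median width of 427 bp against 640.5 bp.

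Fold enrichment and the q-value ordered the 2 kinds of lost site differently. Single-copy lost sites had a median lower fold of 4.44, multi-copy lost sites 2.79 and those with the 171-base spacing 2.56. The median −log10 q was 6.36 and 3.75 in the 2 untreated replicates at single-copy lost sites and 7.58 and 5.16 at multi-copy lost sites. The largest −log10 q values, 83.8 and 80.8, belonged to the lost site chr1:121767533-121767759, with a fold of only 2.75 and 3.08. These repeat sites combined a small fold with a strong q-value.

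**Figure D2:**
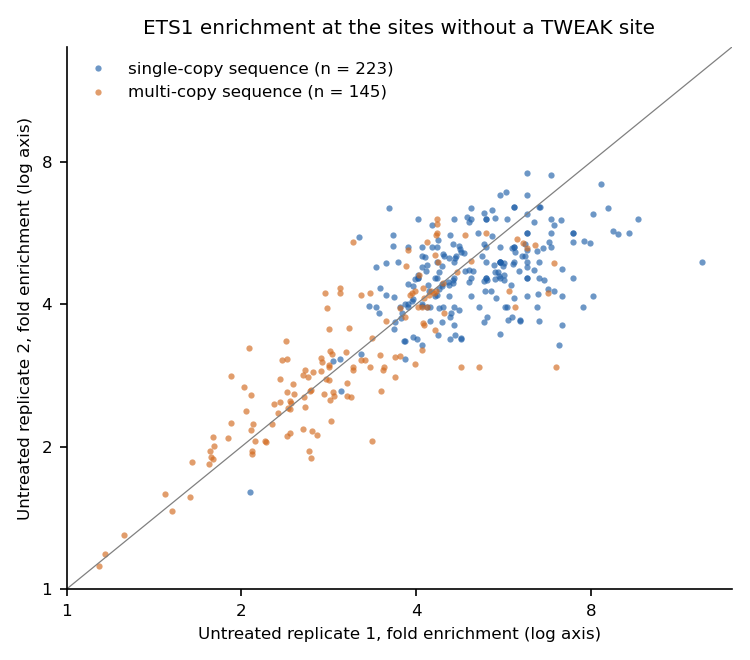
Fold enrichment of ETS1 over input at each of the 368 lost sites in untreated replicate 1 (horizontal) and untreated replicate 2 (vertical), both on log axes, with the line of equal values. Single-copy sites (n = 223, median lower fold 4.44) lie above most multi-copy sites (n = 145, median lower fold 2.79), and the replicates differ more for single sites than in their medians of 4.34 and 4.23.

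As the rule was applied, 234 of the 368 lost sites (63.6%) had an ETS1 peak in 1 of the TWEAK libraries. This share was 42.2% with lists of equal length, 46.5% without untreated replicate 1 and 37.1% without untreated replicate 2, so whether a majority of lost sites held such a peak depended on these choices. A peak was present in TWEAK replicate 1 only at 135 lost sites and in replicate 2 only at 99, and 5 had peaks of both replicates that shared no base. That left 129 of the 368 sites (35.1%, interval 30.2 to 40.2%) with no TWEAK peak, of which 58 were single-copy and 71 multi-copy. Where a single-copy lost site had a TWEAK peak, its median fold enrichment was 5.09 in replicate 1 (106 sites) and 4.95 in replicate 2 (62 sites). These medians cover called peaks only, so sites with weaker signal do not enter them. At the edge of the rule, the closest lost site lay 184 bp from a TWEAK site and the next 200 bp, against a median gap of 172681 bp. The shortest overlap of a common site was 164 bp and the next 176 bp.

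By strength the single sites ranked as follows. The first, chr19:2488669-2489422, lay 12689 bp from GADD45B, a stress-response gene, with folds of 8.33 and 7.18 in the untreated replicates and a peak of 3.77 in TWEAK replicate 1. The second, chr17:30710028-30710324, had 6.83 and 7.52 and no TWEAK peak. The third was in an exon 595 bp from the start of PROSER2 (6.52 and 6.43, and 4.31 in TWEAK replicate 1). The fourth, at the promoter of TYMS, which encodes thymidylate synthase, had 6.53 and 6.43 and a peak of 6.14 in TWEAK replicate 2. The fifth, between COX11, a cytochrome c oxidase assembly factor, and STXBP4, had 8.57 and 6.4 and a peak of 8.49 in TWEAK replicate 2, as strong as in the untreated cells. Of these 5 sites, only the second had no peak in any TWEAK library.

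The sixth strongest, at the promoter of C1orf50 (chr1:42766575-42767079), had 8.07 and 6.21 and no TWEAK peak. The seventh (chr11:64036372-64036793) and eighth (chr4:180058801-180059358) lay in introns, with TWEAK replicate 2 peaks of 4.90 and 6.03. The ninth was at the promoter of TRIM47, a ubiquitin ligase gene (6.21 and 6.20, and 5.63 in TWEAK replicate 2). The tenth was at FLRT2, a cell-adhesion gene (9.63 and 6.05, and 5.88 in TWEAK replicate 1). After the second and sixth, the strongest sites with no TWEAK peak were at the promoters of RASGEF1B (chr4:81471487-81471821, 5.90 and 6.43), KLF4 (chr9:107488565-107489085, 5.73 and 6.06) and CDK5R1 (chr17:32487478-32487876, 6.21 and 5.67). KLF4 is a zinc finger transcription factor of cell identity, CDK5R1 an activator of the kinase CDK5 and RASGEF1B an exchange factor for small GTPases. All 10 of the strongest sites were single-copy.

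Short sequences were counted on both strands in the 300 bases around each summit. CTTCCGG, the high-affinity ETS sequence, was in 19 of the 368 lost sites (5.16%), 7.57% of common sites, 13.6% of gained sites, 10.3% of 34961 RefSeq promoters of the same length and 0.684% of 29107 evenly spaced genome windows. Of those 19 sites, 18 were single-copy, which is 8.07% of single-copy lost sites (interval 4.85 to 12.5%) beside 8.67% of single-copy common sites and 15.5% of single-copy gained sites. AGGAAG was in 29.3% of lost sites, but in 23.8% of single-copy and 63.9% of the 171-base repeat sites, beside 24.5% of common sites, 33.7% of promoters and 25.7% of genome windows. The bare core GGAA was in all 61 repeat sites and in 91.9% of single-copy lost sites, and in 92.1% of the genome windows. A single core is thus close to universal in windows of this length, whether bound or not.

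Of the other factors' sequences, GGGCGG, bound by SP and KLF factors, was the most frequent in lost sites, at 43.8% (50.7% of common sites, 45.0% of promoters, 4.11% of genome windows). The κB consensus was in 28% of lost and 27.6% of common sites, beside 25.6% of promoters, and some matches can overlap GGGCGG or other GC-rich words. CTCGCGAG, the core bound by KAISO, was in 1.90% of lost, 3.47% of common and 1.02% of promoters. CAGGTG, an E-box bound by ZEB1, was in 15.5% of lost and 17.2% of common sites, below the 20.6% of promoters. CCAAT was in 14.9% of lost and 15.8% of common sites, beside 34.6% of promoters. TGTGGT for RUNX was in 7.88% and 5.93%, beside 13.1% of promoters. TGANTCA for AP-1 was in 3.26% and 2.28%, beside 7.68% of promoters. These sequences were thus rarer than in promoters at lost and common sites alike. GCGCATGC was in 1.63% of lost sites, 1.73% of common sites and 3.06% of promoters. TGACGTCA, the cyclic AMP response element, was in 0 of 368 lost sites, which allows a share of up to 0.815% (a limit of 3 counts). It was in 0.0912% of common sites and 1.85% of promoters. All shares of lost and common sites in this paragraph pool single-copy and multi-copy sites. None of the 11 sequences was found in 64 lost sites (17.4%). A match describes these letters only and is not a measured binding site.

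RNA Pol II peaks were about as frequent at single-copy lost sites as at common ones. Over all single-copy sites they were less frequent than at gained ones, but not clearly so outside promoters. In the untreated replicates, 28.7% and 51.1% of the 223 single-copy lost sites had an RNA Pol II peak, and in the TWEAK replicates 45.7% and 42.6%. At single-copy common sites the same 4 libraries gave 27.5, 52.3, 44.8 and 41.4%, each within the interval of the lost sites. At single-copy gained sites they gave 37.6, 60.4, 55.5 and 52.6%, each above that interval. At gained promoter sites of both copy classes they gave 44.1, 69.5, 64.0 and 62.3%, each above the interval of the lost promoter sites. Outside promoters, single-copy gained sites gave 22.7, 39.2, 35.6 and 28.9%, each within the interval of such lost sites. No test was run on these shares. The replicates of untreated cells differed more from each other than either differed from a TWEAK replicate, beside list sizes of 24848 and 38307 peaks untreated and 44672 and 27056 with TWEAK. In ETS1 KD cells the shares at single-copy lost sites were 33.6% and 38.1%, and in NFKB2 KD cells 41.3% and 31.8%. The single-copy gained sites were again above the interval of the single-copy lost sites in both ETS1 KD libraries (46.3 and 49.8%). The same held in NFKB2 KD replicate 1 (53.8%), but not in NFKB2 KD replicate 2 (37.95%, interval of the lost sites 25.8 to 38.4%). With 2 libraries in each group an exact permutation test cannot go below p = 0.333, so none was used.

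RNA Pol II at multi-copy lost sites was lower than at multi-copy common sites in every library. The shares were 20% and 6.90% untreated and 11.7% and 7.59% with TWEAK at the lost sites, against 45.5, 34.3, 44.4 and 39.0% at the common sites. In ETS1 KD cells both replicates gave 6.21%, and in NFKB2 KD cells 8.28% and 14.5%. In each library the interval of the lost sites lay below that of the multi-copy common sites, as the plot of peaks by library shows. The untreated and TWEAK libraries did not separate at the lost sites in either copy class.

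Over all lost sites, RNA Pol II peaks were in both untreated replicates at 65 sites (17.7%) and in both TWEAK replicates at 91 (24.7%). They were in all 4 of these libraries at 60 sites and in none at 193. RNA Pol II in both untreated replicates and in neither TWEAK replicate, a pattern that would follow the ETS1 calls, was seen at 0 of the 368 lost sites, which allows a share of up to 0.815% (a limit of 3 counts), beside 0.273% of all 1464 untreated ETS1 sites. The opposite pattern was seen at 4 lost sites, beside 1.37% of the untreated ETS1 sites. These 4 were named after their values were seen. They were the TAF4 promoter (chr20:62066445-62066691), with RNA Pol II folds of 203.9 and 57.2 with TWEAK, the ZNF398 promoter (5.88 and 6.28), an intron whose nearest start is that of CLIP4 (3.95 and 5.41) and a multi-copy site on chromosome 19 (chr19:36293550-36294154, 3.29 and 4.88). TAF4 encodes a subunit of TFIID, the general initiation factor. Its RNA was 4.21, 5.01 and 12.6 CPM (counts scaled for library size) untreated and 5.45, 12.5 and 14.9 CPM with TWEAK, groups that overlapped.

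**Figure D3:**
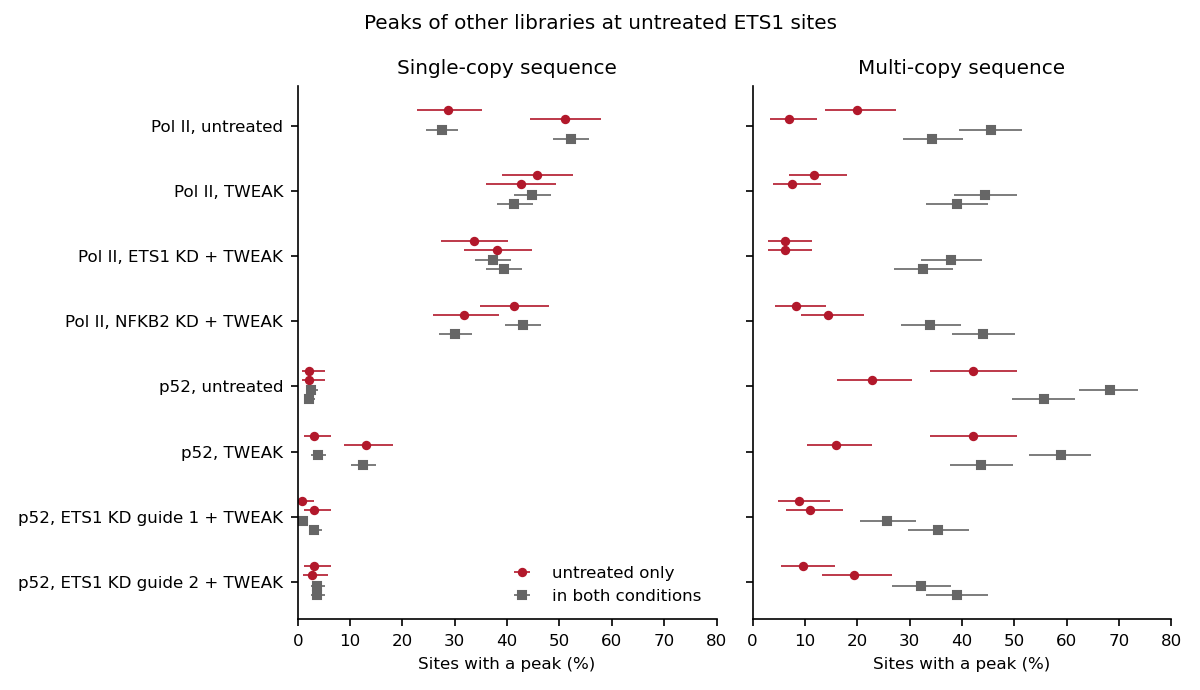
Share of untreated ETS1 sites with a peak (horizontal axis, percent) in each RNA Pol II and p52 library, 2 replicates per group (vertical axis), for lost sites (circles) and common sites (squares), in single-copy (left) and multi-copy sequence (right). Bars are 95% exact binomial intervals, and those of lost and common sites overlap in every library on the left and in none on the right, where the lost sites are lower for both RNA Pol II and p52.

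p52 was rarely found at single-copy lost sites. A p52 peak was at 2.24% of them in each untreated replicate (5 of 223) and at 3.14% and 13.0% in the TWEAK replicates, whose lists held 3579 and 11761 peaks. Single-copy common sites gave 2.56 and 2.08% untreated and 3.78 and 12.5% with TWEAK. The TWEAK replicates thus differed by a like amount at both kinds of site. In ETS1 KD cells given TWEAK the shares at single-copy lost sites were 0.897% and 3.14% with guide 1 and 3.14% and 2.69% with guide 2.

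At multi-copy lost sites p52 peaks were frequent, also without TWEAK. Both replicates named 1 gave 42.1%, untreated and with TWEAK, and the replicates named 2 gave 22.8% and 15.9%. These untreated shares came from lists of only 714 and 452 peaks. With ETS1 KD the shares were 8.97% and 11% for guide 1 and 9.66% and 19.3% for guide 2, from lists of 1387 to 4252 peaks. Multi-copy common sites gave 68.2 and 55.6% untreated, 58.8 and 43.7% with TWEAK and 25.6 to 39.0% in the 4 ETS1 KD libraries. All 4 ETS1 KD libraries were below 3 of the 4 control libraries at the lost sites and below all 4 at the common sites, and the part of list size or of the knockdown in this was not tested.

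p52 in both TWEAK replicates was found at 16 lost sites (4.35%, interval 2.5 to 6.97%), 5 of them single-copy, and in both untreated replicates at 28. Of the 5 single-copy sites, 3 were at promoters. At TAF4B, which encodes a cell-type-specific TFIID subunit, no untreated replicate had a p52 peak, and the p52 folds were 17.6 and 33.5 with TWEAK and 8.36, 14.6, 14.8 and 14.5 over the 4 ETS1 KD libraries. At NRG1, which encodes neuregulin, a growth factor for ERBB receptors, they were 6.35 and 17.0 with TWEAK, and 7.74, 7.17 and 13.3 in 3 of the 4 ETS1 KD libraries. At ICA1L they were 7.87 and 19.3 with TWEAK and 7.35, 11.2, 18.5 and 20.4 with ETS1 KD. At these 3 promoters p52 was called in 4, 3 and 4 of the 4 ETS1 KD libraries. They were picked for p52 peaks in both TWEAK replicates and do not stand for the lost sites as a whole, whose shares are given above. All 3 sites also had an ETS1 peak in at least 1 TWEAK replicate (6.92 at TAF4B, 5.79 and 4.99 at NRG1, and 4.06 at ICA1L).

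RNA-seq was used to follow the genes. The 12 libraries held 28384201 to 40192606 counts, and 16879 genes were tested. ETS1 was at 42.1, 41.3 and 45.1 CPM untreated, 71.9, 73.1 and 87.6 with TWEAK, 28.2, 33.0 and 37.8 in ETS1 KD and 67.1, 48.8 and 65.4 in NFKB2 KD cells. It was higher with TWEAK (log2 0.86, SE 0.15, adjusted p = 0.0076, edgeR's quasi-likelihood test with Benjamini-Hochberg adjustment) and lower in ETS1 KD (log2 −1.23, SE 0.15, adjusted p = 0.0011, edgeR). NFKB2 rose with TWEAK (log2 2.35, SE 0.18, adjusted p = 2.92e-05, edgeR) and fell in NFKB2 KD (log2 −1.67, SE 0.18, adjusted p = 0.0034, edgeR), so the targeted genes followed the labels. Of 7 glial and glioma markers, VIM, CD44 and NES were over 1 CPM in every library, while the glial markers GFAP, S100B and SOX2 were under 1 CPM in every library. The summed CPM of markers of other cell types was at most 36.0 for 3 neuronal, 1.75 for 3 immune, 5.31 for 3 endothelial and 2.12 for 3 epithelial genes. Of the 3 neuronal markers, 2 were over 1 CPM in every library. These were SNAP25 (12.4 to 19.9 CPM) and SYT1 (9.14 to 18.2 CPM), while RBFOX3 was at 0. The study's methods state biological replicates for RNA-seq, and in bulk RNA fewer cells with a transcript and less of it per cell cannot be told apart.

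The 152 promoter sites among the lost sites held starts of 189 genes, of which 135 were protein coding, 39 lncRNA genes, 8 pseudogenes, 2 microRNA genes and 1 a small nuclear or nucleolar RNA gene. They included the ribosomal protein gene RPL41, the mitochondrial MRPS2, the histone gene H3C15, ACTB for cytoplasmic actin and ZEB1, a repressor of epithelial genes. Of the 189, 137 had enough counts to be tested and 52 did not, 18 of these with no count in any library. The genes tested were well expressed. Their median level over libraries was 4.31 to 5.54 RPKM (reads scaled for gene length and library size), against 2.69 to 2.96 for all genes tested, 2.73 to 3.06 for genes at common promoter sites and 4.04 to 4.76 at gained promoter sites.

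Few of these genes changed. With TWEAK, 5 of the 137 rose and 2 fell at an adjusted p under 0.05 (edgeR), beside 1.55% higher and 1.53% lower among all 16879 genes tested. The median log2 change of the 137 was 0.04, with 76 above and 61 below zero, and the median of all genes was 0.02. At an unadjusted p under 0.05, 15 were higher (10.9%) and 7 lower (5.11%), beside 6.9% and 7.77% of all genes. DESeq2 called 8 and 3, beside 2.55% and 3.02% of all genes. Genes at common promoter sites gave 8 higher and 14 lower of 528. Among 33 tested genes whose lost site had no peak in either TWEAK library, KLF4 rose and no other gene was called. The share of the 137 called lower by edgeR (1.46%) was thus near that of all genes and the share called higher (3.65%) was above it, a difference of a few genes that was not tested.

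Among the genes that rose, KLF4 was at 10.6, 10.5 and 12.3 CPM untreated and 20.5, 21.5 and 20.2 with TWEAK (log2 0.90, SE 0.14, adjusted p = 0.0041, edgeR). The groups did not overlap. In ETS1 KD cells it was at 15.5, 16.7 and 20.1 CPM and in NFKB2 KD cells at 14.7, 19.1 and 18.4, and neither passed the test. Its promoter was the only one of the 7 with no ETS1 peak in any TWEAK library. It had RNA Pol II in TWEAK replicate 1 (fold 83.6) and in ETS1 KD replicate 1 (4.09) and in no other library. The GGGCGG matches of the promoter site are in capitals (chr9:107488620-107488739).
KLF4: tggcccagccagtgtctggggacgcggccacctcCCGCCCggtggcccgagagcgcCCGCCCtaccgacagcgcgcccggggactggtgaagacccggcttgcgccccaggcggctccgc

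TBX2, a T-box repressor that restrains senescence genes, was at 80.9, 89.4 and 117.8 CPM untreated and 156.4, 194.3 and 196.2 with TWEAK (log2 0.92, SE 0.16, adjusted p = 0.0078, edgeR). TRIM47 was at 48.9, 53.4 and 69.9 CPM and then 87.5, 117.7 and 118.0 (log2 0.91, SE 0.17, adjusted p = 0.012, edgeR). CDC20, an activator of the anaphase-promoting complex, was at 136.5, 141.3 and 149.5 CPM and then 218.5, 204.1 and 191.6 (log2 0.52, SE 0.11, adjusted p = 0.026, edgeR). In none of the 3 genes did the groups overlap. The ETS1 folds at these lost sites were 3.65 and 5.59 untreated at TBX2 with 5.73 in TWEAK replicate 2, and 4.44 and 4.38 at CDC20 with 6.01 in TWEAK replicate 1. CDC20 was the only one of the 7 genes whose site window holds the high-affinity ETS sequence, in capitals here with GGGCGG and CCAAT matches (chr1:43358819-43358938).
CDC20: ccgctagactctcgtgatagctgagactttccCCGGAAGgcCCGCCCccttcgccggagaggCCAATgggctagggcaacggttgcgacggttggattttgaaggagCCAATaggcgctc

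TSPAN9, a tetraspanin gene, fell from 27.97, 32.4 and 45.0 CPM to 13.0, 15.8 and 17.0 (log2 −1.20, SE 0.26, adjusted p = 0.026, edgeR). EDIL3-DT, a lncRNA gene divergent from EDIL3, fell from 6.26, 5.19 and 4.59 CPM to 3.52, 2.49 and 2.30 (log2 −0.96, SE 0.23, adjusted p = 0.043, edgeR). The groups did not overlap in either gene. Each had a TWEAK replicate 1 ETS1 peak at its lost site (4.92 and 4.06). TSPAN9 was at 15.3, 34.0 and 20.2 CPM in NFKB2 KD cells, with replicate 2 as high as the untreated cells. Divergent and antisense pairs such as EDIL3-DT with EDIL3, CDC20 with CDC20-DT and TBX2 with TBX2-AS1 share a start region, and whether the counting used strand is not given in the sources used here. The TSPAN9 stretch (chr12:3076924-3077043) shows an AGGAAG and a GGGCGG match in capitals.
TSPAN9: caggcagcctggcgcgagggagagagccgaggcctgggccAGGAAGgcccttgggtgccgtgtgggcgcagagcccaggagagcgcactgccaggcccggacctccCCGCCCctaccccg

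Of the genes that rose, NRG1 changed most. It was at 36.6, 40.7 and 45.4 CPM untreated and 92.4, 104.0 and 148.3 with TWEAK. Every TWEAK library was above every untreated library, and the log2 change was 1.49 (SE 0.25, adjusted p = 0.0067, edgeR). The NRG1 site (chr8:32548113-32549262) lay at a start inside the long gene and kept ETS1 peaks in both TWEAK replicates that did not share a base, so its place among the lost sites rests on the rule's edge. NRG1 RNA was 84.5, 43.3 and 83.1 CPM in NFKB2 KD cells, where replicate 2 stood apart (log2 −0.71, adjusted p = 0.9996, edgeR), and 100.2, 134.6 and 145.2 in ETS1 KD cells. RNA Pol II at the site was absent and 8.29 in the untreated replicates and 16.4 and 10.3 with TWEAK.

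**Figure D4:**
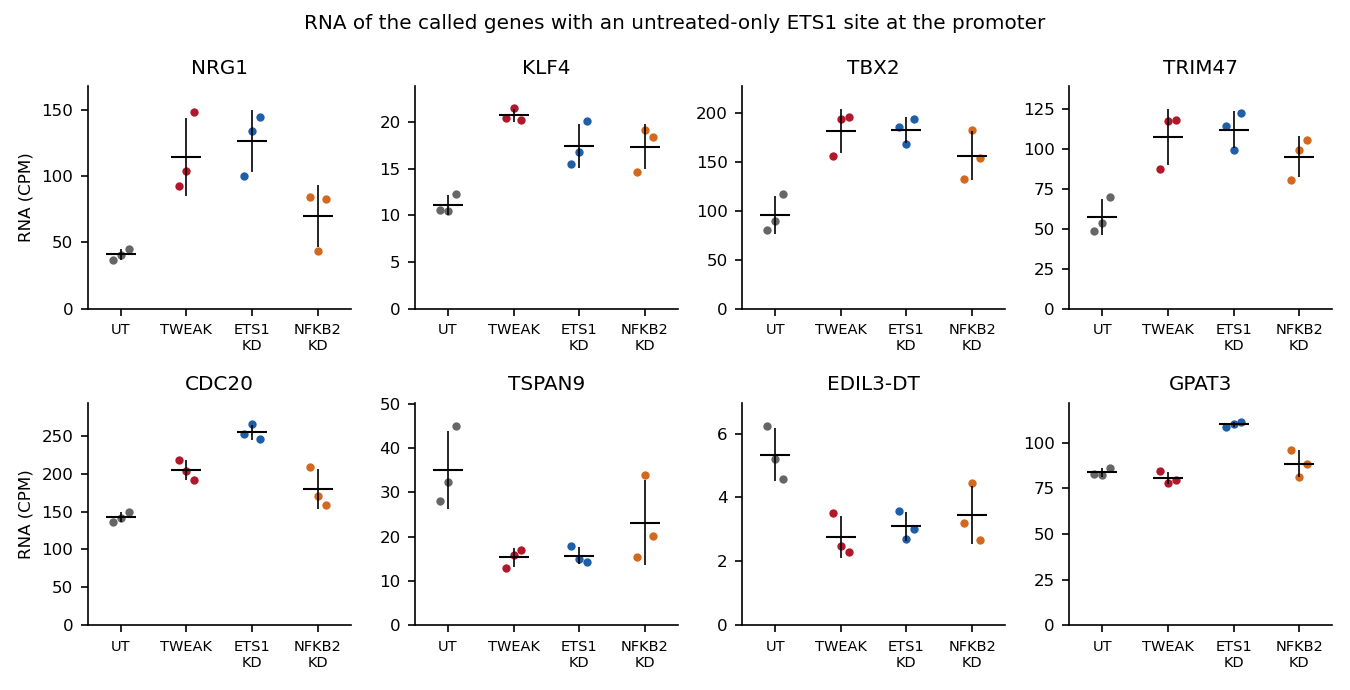
RNA in CPM (vertical axes from 0, 1 panel per gene) of the 8 genes that passed the test and have a lost ETS1 site at the promoter, in control untreated (UT), control TWEAK, ETS1 KD and NFKB2 KD cells, the last 2 with TWEAK. Points are libraries, n = 3 per group, and bars are mean ± SD; for 7 genes every TWEAK library lies on one side of every untreated library, and GPAT3 is higher only in ETS1 KD cells.

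The calls for KLF4 and NRG1 passed the test under all 10 alternatives, which were other normalizations, filters, tools and fits without single libraries. TBX2 and TRIM47 passed under 6, TSPAN9 and EDIL3-DT under 5 and CDC20 under 4, and no direction turned. Leaving out untreated replicate 2, TWEAK replicate 2 or TWEAK replicate 3 ended the call for all 5 of these genes. Leaving out untreated replicate 1 ended it for CDC20, EDIL3-DT, TBX2 and TRIM47, untreated replicate 3 for EDIL3-DT and TSPAN9, and TWEAK replicate 1 for CDC20 and TSPAN9, and CDC20 also missed the threshold with no filter on low counts. The adjusted p-values of these fits reached 0.20 (edgeR).

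In ETS1 KD against control cells, both with TWEAK, 1 of the 137 genes was higher and 0 were lower (edgeR), beside 0.255% higher and 1.13% lower among all genes tested. At an unadjusted p under 0.05, 8 were higher (5.84%) and 9 lower (6.57%), beside 4.92% and 7.06% of all genes. DESeq2 called 4 and 0, beside 0.936% and 2.23% of all genes. The gene was GPAT3, which encodes a glycerol-3-phosphate acyltransferase of lipid synthesis, at 84.5, 77.8 and 79.6 CPM in control and 108.9, 110.5 and 111.3 in ETS1 KD cells (log2 0.45, SE 0.10, adjusted p = 0.036, edgeR). The groups did not overlap, but the call was lost without any 1 of the 6 libraries (adjusted p up to 0.18, edgeR). TYMS was next, at 177.1, 172.7 and 173.2 CPM and then 229.7, 239.5 and 228.0 (log2 0.41, adjusted p = 0.057, edgeR), and did not pass. FLRT2, at the tenth strongest site, was at 22.03, 24.5 and 32.6 and then 13.5, 16.7 and 16.9 CPM (adjusted p = 0.26, edgeR). The median log2 change of the 137 genes was 0.02, against 0.01 over all genes.

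In NFKB2 KD against control cells 0 of the 137 genes were higher and 0 lower (edgeR), beside 0.00592% and 0.0237% of all genes tested, and DESeq2 also called 0 and 0, beside 0.0592% and 0.154% of all genes. At an unadjusted p under 0.05, 3 were higher and 3 lower (2.19% each), beside 2.04% and 1.87% of all genes, and the median log2 change was −0.01 against −0.02 over all genes. Both knockdown comparisons use the same 3 TWEAK control libraries as the comparison of TWEAK with untreated cells, so their values are given side by side and no agreement between them was counted.

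**Figure D5:**
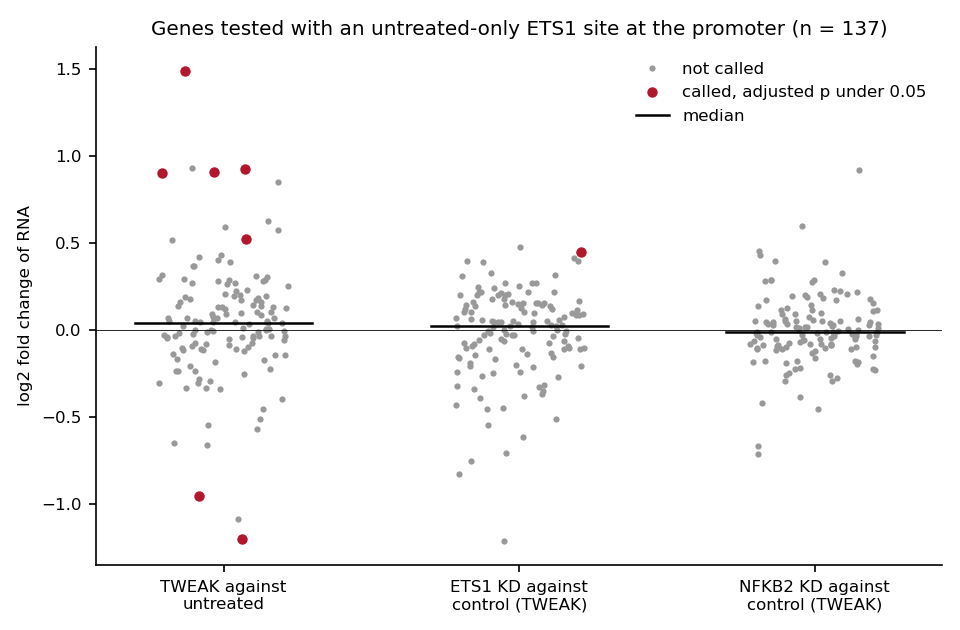
log2 fold change of RNA (vertical axis) for the 137 tested genes with a lost ETS1 site at the promoter in the 3 comparisons (horizontal axis), with the median as a black line and genes past the test in red. The medians are 0.04, 0.02 and −0.01, and 7, 1 and 0 genes passed.

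The genes at the promoters with p52 in both TWEAK replicates did not move together. NRG1 rose as given above. TAF4B was at 7.09, 9.10 and 9.25 CPM untreated and 11.8, 9.48 and 12.1 with TWEAK (log2 0.39, adjusted p = 0.42, edgeR). ICA1L was at 9.07, 7.71 and 7.28 CPM and then 4.92, 5.15 and 6.16 (log2 −0.57, adjusted p = 0.11, edgeR), lower in every TWEAK library but not past the test.

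Of 28 ETS family genes, ETV4 alone had a lost site at its promoter (chr17:43545450-43546029). Among all 16879 genes tested, 137 had a lost site at the promoter, 528 a common site and 474 a gained site. ETV4 RNA was 15.2, 16.5 and 20 CPM untreated and 20.02, 27.3 and 29.6 with TWEAK (log2 0.57, SE 0.16, adjusted p = 0.087, edgeR). Over the list, 19 genes were tested and 2 were higher (10.5%) and 0 lower with TWEAK, ETS1 among them, beside 1.55% and 1.53% of all genes. Of 29 genes listed as reported ETS1 targets, 0 had a lost site at the promoter, while KDR and NRP1 had a common site and BCL2 and JUNB a gained site there. With so small a part of all genes at lost sites, lists this short would hold few or none, so these counts show no preference or avoidance. Of the 29 listed targets, 25 were tested, of which 6 were higher (24%) and 1 lower (4%) with TWEAK, beside 1.55% and 1.53% of all genes. In ETS1 KD cells 0 were higher and 1 lower (4%), beside 0.255% and 1.13% of all genes.

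CCND1, which encodes cyclin D1, was on that list and had a lost site in an intron, with its centre 324 bp from a start (chr11:69641061-69642049), outside the promoter window. The ETS1 folds were 4.37 and 3.45 untreated, without a TWEAK peak. CCND1 RNA was 823.3, 876.4 and 933.6 CPM untreated and 1127, 1200 and 1208 with TWEAK, groups that did not overlap (log2 0.42, SE 0.09, adjusted p = 0.028, edgeR). In ETS1 KD cells it was at 1067, 1118 and 1151 CPM. RNA Pol II was present in every library there, with folds of 22.4 and 34.2 untreated and 43.99 and 31.0 with TWEAK. It was the 1 called gene among 57 tested genes nearest to, and within 10000 bp of, the lost sites outside promoters, and is named after its value was seen. For those 57 genes, 7 were higher and 7 lower with TWEAK at an unadjusted p under 0.05 (12.3% each, edgeR), beside 6.9% and 7.77% of all genes, and 0 were called in either knockdown.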

How the data were processed

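The authors trimmed reads with Trimmomatic and mapped them to hg38, ChIP-seq reads with Bowtie2 and RNA-seq reads with STAR. The authors called peaks in each library with MACS2 with subtraction of input and removed blacklisted regions. The deposited peak lists give a fold enrichment over background (a ratio) and −log10 p and −log10 q values at each summit, with no read counts behind them. The deposited RNA-seq table holds the authors' raw featureCounts counts per gene. Tool versions, the peak threshold, the strand setting and the treatment of multi-mapping reads are not given in the sources used here. The 3 input samples, all labelled as TWEAK-treated, were not analysed here, and which input served which library is not given in the sources used here.

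Sites were built from the 4 ETS1 lists by the rule in the report, with 1 bp of overlap counting as shared. Peaks in the other 16 ChIP libraries were counted where they shared 1 bp with a site. Genes came from GENCODE 44, promoter sequences from the RefSeq table (hg38), and other sequences from the hg38 genome. Words of 32 bases were counted over the whole genome. The 171-base class needed an identity of 60% at a lag within 3 bp of 171 or 6 bp of 342 in 800 bp around the summit, 171 bp being the most frequent spacing between 100 and 250 bp among tandem sites (13 of 25), and the GGAAT class 8 or more GGAAT words in 300 bases.

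RNA counts were tested with edgeR 4.0.16 (R 4.3.3), with TMM scaling, filterByExpr and the quasi-likelihood test in 1 fit of 12 libraries in 4 groups. P-values were adjusted over all 16879 genes tested with the Benjamini-Hochberg method and called under 0.05. The scripts for sites and for RNA were tested on simulated data. CPM values are counts scaled by library size and TMM, or by library size only for genes that were not tested. The sums over cell type markers add both kinds. Libraries held 28384201 to 40192606 counts, and no 2 libraries of a group agreed within sampling noise. Intervals are exact (Clopper-Pearson) at 95%. The limit given for a count of 0 is 3 counts of the total.

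Sites and genes were named by rule. These were the 10 strongest lost sites, the 5 strongest with no TWEAK peak, the called promoter genes, and the promoter genes with p52 in both TWEAK replicates. The sites, gene lists, consensus sequences and tests were chosen with earlier results of these data known. Alternatives were DESeq2 1.42.0, other scaling, no filter, a replicate block, the study's threshold, other site, overlap, promoter and window rules, and each library left out. The share of each site that is masked as repeat was not computed. A gene and a few sequence stretches are not reported here.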

Additional observations from a re-analysis of the deposited data

Results flagged for a closer look

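Outside chromosomes 1 to 22, X and Y, 36 further untreated ETS1 sites touched no TWEAK site. They lay on 14 unplaced or unlocalized contigs, 13 of the sites on contigs assigned to a chromosome and 23 on unassigned ones, with 6 on the contig that held most. In all, 120 untreated ETS1 sites lay on such contigs. They were brought up because they are signal in sequence that the comparisons above do not use, and their place in the genome was not determined.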

How the results depend on the processing

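The number of lost sites moved most. It was 1796 when a peak in either replicate made a site, 129 when no TWEAK library could have a peak, 223 for single-copy sites (a setting chosen after seeing the data, as all single-copy values here), and 230 to 2526 when 1 ETS1 library was left out, with 708 without untreated replicate 1, 2526 without untreated replicate 2 and 230 without TWEAK replicate 2. The promoter share was 29.5% with no TWEAK peak, 57.3% with a window of 2000 bp before to 500 bp after a start, 62.3% for single-copy sites and 36.2 to 44.1% with a library left out. The share with a peak in 1 TWEAK library was 0% under both other replicate rules, by their construction, 57.9% at a −log10 q of at least 2, 42.2% with lists of equal length, 72.7% for single-copy sites and 37.1 to 46.5% with an untreated library left out. RNA Pol II in both untreated replicates was at 13.9% (either replicate), 13.2% (no TWEAK peak), 12.8% (overlap of at least 50% of the shorter interval), 26% (single-copy) and 15.5 to 33.7% (library left out). RNA Pol II in both TWEAK replicates was at 20.2% (either replicate), 20.2% (no TWEAK peak), 19.0% (the longer overlap), 37.2% (single-copy) and 22.6 to 32.3% (library left out). p52 in both TWEAK replicates was at 2.28% (either replicate), 2.24% (single-copy) and 2.65 to 18.5% (library left out). CTTCCGG was in 2.88% with equal lists, 2.17% of 100-bp windows and 8.07% of single-copy sites, and AGGAAG in 40.2% of whole sites, 12% of 100-bp windows and 23.8% of single-copy sites. For genes higher with TWEAK, DESeq2 called 8, the sites with no TWEAK peak left 1, and leaving out a library gave 2 to 6. For genes lower with TWEAK, no filter gave 4, the study's threshold 4, the sites with no TWEAK peak 0 and leaving out a library 0 to 1, and the median log2 change became −0.0341 for sites with no TWEAK peak. For genes higher in ETS1 KD, no filter gave 0, DESeq2 4, the wide promoter window 2, the sites with no TWEAK peak 0, the study's threshold 0 and leaving out a library 0. For genes lower in ETS1 KD, no filter gave 1 and the study's threshold 2. In NFKB2 KD, no filter gave 1 gene higher and 1 lower and the study's threshold 2 and 2, and the median log2 change was 0.0170 with no filter, 0.0210 for sites with no TWEAK peak and −0.0259 to 0.0442 with a library left out. The deviations of same-numbered RNA libraries correlated at −0.30 to 0.49 over 18 pairs, and those of differently numbered ones at −0.56 to 0.49. These ranges overlap, so pairing by replicate number was neither shown nor excluded. With the replicate block, 7 genes were higher and 2 lower with TWEAK, 2 higher in ETS1 KD and 0 called in NFKB2 KD. Where no cause is given, the cause was not tested. Of the other 128 values computed, none moved beyond its limit. Read counts at the sites were not used, so a difference in ETS1 strength could not be tested, and each ChIP group had 2 libraries.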
